A study of Mus musculus with 15 samples.

Results

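A set of 8 genes of fibrous connective tissue was followed through spatial transcript counts of mouse embryo sections: the fibrillar collagen chains Col1a1, Col1a2, Col3a1, Col5a1 and Col5a2, the matricellular protein gene Postn, and the small leucine-rich proteoglycan genes Dcn and Lum. They were taken by symbol from the transcript tables, and all 8 were found among 30534 features. Frozen sections from embryonic days 10, 11 and 12 (E10, E11 and E12) had been barcoded in place by crossed microfluidic channels, so that each crossing is a pixel 10, 25 or 50 µm wide whose transcripts are counted together. The 11 transcript libraries fell into 6 groups: E10 at 50 µm (3 libraries), E10 at 25 µm (1), E10 at 10 µm (2), E11 at 25 µm (2), E11 at 10 µm (2) and E12 at 50 µm (1). The labels name no strain, sex, treatment or genetic change for any group. They give neither the region of the body in a section nor its embryo, so sections of a group may share an embryo and p-values measure only the spread between these sections. In 4 of the E10 sections, antibody tags were counted as well.

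Collagen fibrils of connective tissue are built mainly from type I collagen, a trimer of Col1a1 and Col1a2 chains, and in young and distensible tissue also from type III collagen, a trimer of Col3a1 chains. Type V collagen, made with Col5a1 and Col5a2 chains, sits inside these fibrils and is needed to start them, while decorin (Dcn) and lumican (Lum) bind the fibril surface and limit its sideways growth. Periostin (Postn) is secreted by fibroblast-like cells, among them those of heart valves, tendon and periosteum, and binds collagen.

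The genes lie on 6 chromosomes, and 4 of them form neighbouring pairs (positions from GENCODE M21, build GRCm38). Col3a1 (chromosome 1, 45311538 to 45349706, plus strand) and Col5a2 (45374321 to 45503282, minus strand) are adjacent protein-coding genes whose 3′ ends lie 24.6 kb apart. Dcn (chromosome 10, 97479609 to 97518143) and Lum (97565128 to 97572703) are adjacent on the plus strand, 47.0 kb apart. Col1a1 (chromosome 11, 94936224 to 94953042), Col1a2 (chromosome 6, 4504814 to 4541544), Col5a1 (chromosome 2, 27886425 to 28039514) and Postn (chromosome 3, 54361109 to 54391037) lie on plus strands with no other member beside them. Col5a1 overlaps 2 annotated genes on the opposite strand, and Col1a2, Col3a1 and Col5a2 overlap 1 each on their own strand. How reads in such overlaps were counted is not given in the sources used here, so those counts may hold reads of the other gene.

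Promoter sequences from RefSeq (GRCm38.p6) are shown for the 4 genes that matched the table, because Col1a2, Col5a1 and Postn were called higher at E12 below and Col1a2 and Col3a1 had the highest pixel-level correlation of any pair. Each is the 250 bases before a RefSeq transcript start, on the plus strand. Capitals mark matches on either strand to any of the motifs searched.
Col1a2 (chr6:4505368-4505617): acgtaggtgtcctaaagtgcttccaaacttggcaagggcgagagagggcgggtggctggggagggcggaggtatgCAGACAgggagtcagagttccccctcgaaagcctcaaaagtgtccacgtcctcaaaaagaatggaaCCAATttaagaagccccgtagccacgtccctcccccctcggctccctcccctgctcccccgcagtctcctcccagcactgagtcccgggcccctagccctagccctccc
Col3a1 (chr1:45311288-45311537): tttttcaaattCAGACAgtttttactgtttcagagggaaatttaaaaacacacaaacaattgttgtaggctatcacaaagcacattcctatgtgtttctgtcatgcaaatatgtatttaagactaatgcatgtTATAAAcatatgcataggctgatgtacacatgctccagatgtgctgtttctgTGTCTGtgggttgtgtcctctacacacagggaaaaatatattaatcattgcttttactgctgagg
Col5a1 (chr2:27886175-27886424): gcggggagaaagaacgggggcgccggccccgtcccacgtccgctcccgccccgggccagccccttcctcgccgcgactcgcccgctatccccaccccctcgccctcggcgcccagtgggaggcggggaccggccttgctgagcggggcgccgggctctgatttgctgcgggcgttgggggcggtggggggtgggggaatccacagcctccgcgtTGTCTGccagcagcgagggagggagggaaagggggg
Postn (chr3:54360857-54361106): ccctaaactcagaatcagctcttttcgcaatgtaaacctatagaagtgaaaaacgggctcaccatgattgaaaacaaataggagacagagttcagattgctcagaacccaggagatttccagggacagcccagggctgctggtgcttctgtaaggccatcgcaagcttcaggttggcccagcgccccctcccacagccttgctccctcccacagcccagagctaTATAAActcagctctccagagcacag
The motif CCAAT was found once in the Col1a2 window, with its first base at -109 from the start, and in no other window shown. The motif TATAAA was found at -26 in the Postn window and at -117 in the Col3a1 window. The motif CAGACA was found at -175 in the Col1a2 window, at -36 (minus strand) in the Col5a1 window, and at -239 and -65 (minus strand) in the Col3a1 window. No matches overlapped. Of 32851 promoters in the table cut to the same 250 bases, 33.8% held the motif CCAAT. For the motif TATAAA the share was 12.4%, and for the motif CAGACA it was 17.1%. These are matches of letters, not binding sites. G or C made up 35.2% of the Col3a1 window, 52% of the Postn window, 62% of the Col1a2 window and 76.4% of the Col5a1 window. The Col1a2 window lies inside the longer GENCODE gene model. A further annotated Postn start had none of these motifs in its window.

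A library held 829 to 2271 tissue pixels and 1563489 to 11998765 counts over them. The sections differed in the tissues they held. Summed heart muscle genes stood at 14.5 and 2651 CPM (a count divided by its library's tissue total and multiplied by 1000000) in the E10 10 µm libraries. They stood at 67.7 and 5119 CPM in the E11 10 µm libraries. In the E12 section, red cell genes stood at 89594 CPM against 16540.2 to 31829 CPM in the E10 50 µm sections, and liver genes at 3638 against 59.4 to 137 CPM. Summed genes of connective tissue cells also stood higher at E12: 10 mesenchyme transcription factors at 477 against 112 to 209 CPM, 7 smooth muscle and pericyte genes at 515 against 101 to 164 CPM, and 5 tendon genes at 31.8 against 5.92 to 8.55 CPM. The sum of 7 osteoblast genes was 57.5 against 10.6 to 20.4 CPM, of which Runx2 alone held 45.2 CPM at E12 and 0.846 to 1.67 CPM at E10. No gene of these lists was at 0 at E12, whereas the tendon gene Kera was at 0 in all 3 E10 50 µm sections. Neuron genes stood lower, at 886 against 1693 to 2815 CPM. The part of these differences in the results below was not tested, and in sums over a section fewer cells of a type and less RNA per cell cannot be told apart.

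At E12, 5 of the 8 genes were called higher than at E10 with 50 µm pixels: Col1a1, Col1a2, Col5a1, Col5a2 and Postn. A call is an adjusted p under 0.05 in edgeR's quasi-likelihood test on counts summed over tissue pixels, with Benjamini-Hochberg adjustment over 18233 genes. In this comparison 2.14% of all tested genes were called (1.93% higher), and the median log2 fold change was 2.02 over the 8 genes and -0.04 over all genes. The E12 section lay above all 3 E10 50 µm sections for each of the 8 genes. E12 has 1 library, so its spread was taken from the other groups. The count of 5 fell to 0 without E10 50 µm replicate 1 or replicate 3, and to 2 without replicate 2 (Col1a1 and Col1a2) or without either E11 25 µm library (Col5a1 and Col5a2).

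Col1a1, the chain that type I collagen holds in double dose, stood at 64.2, 72.0 and 55.8 CPM in the E10 50 µm sections and at 390.0 CPM at E12. With other pixel widths the E10 libraries stood higher, at 145 CPM (25 µm) and at 114 and 85.3 CPM (10 µm). The E10 50 µm sections lay close together and far below E12. This was 5.90-fold (log2 fold change 2.56, SE 0.46, adjusted p = 0.0155). Col1a2, its partner chain, stood at 217, 325 and 167 CPM at E10 and at 1167 CPM at E12 (log2 fold change 2.24, SE 0.51, adjusted p = 0.0435). Col1a2 varied more between the E10 sections, at 236 ± 81.1 CPM (SD, n = 3), than Col1a1 did, at 64.0 ± 8.11 CPM (SD, n = 3).

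Col3a1, the type III chain, had the highest level per kilobase of exon of the 8 genes in each of the 6 groups, with 44.5 CPM per kb at E10 with 50 µm pixels and 114 at E12. Col1a2 was second in 5 groups. In the E11 25 µm libraries Col1a1 took that place, with 23.4 against 15.9 CPM per kb. The length was that of all annotated exons merged, and whether these counts scale with length was not tested. Not divided by length, Col1a2 stood above Col3a1 at E12 (1167 against 1119 CPM) and in E11 10 µm replicate 2 (437 against 423 CPM). It also stood above Col1a1 in the E11 25 µm libraries, at means of 197 and 154 CPM. Col3a1 stood at 471, 544 and 294 CPM in the E10 50 µm sections and at 1119 CPM at E12. Its ranges did not overlap, but the change did not pass the threshold (log2 fold change 1.31, SE 0.42, adjusted p = 0.145).

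Both type V chains, far lower in level, did pass. Col5a1 stood at 46.5, 39.9 and 38.4 CPM at E10 and at 115 CPM at E12 (log2 fold change 1.43, SE 0.28, adjusted p = 0.0232). Col5a2 stood at 62.3, 52.0 and 46.8 CPM at E10 and at 192 CPM at E12 (log2 fold change 1.79, SE 0.33, adjusted p = 0.0177). The E10 sections of both chains lay within a narrow range, well under the E12 section.

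Postn stood at 14.0, 18.7 and 5.74 CPM in the E10 50 µm sections and at 117 CPM at E12. Of the 5 called changes this had the largest estimate and lay nearest the threshold (log2 fold change 3.14, SE 0.68, adjusted p = 0.0483). It was not called with a stricter tissue limit or with all pixels used. Dcn stood at 14.5, 9.06 and 21.7 CPM at E10 and at 103 CPM at E12, which did not pass (log2 fold change 2.74, SE 0.81, adjusted p = 0.152), although DESeq2's Wald test called it (adjusted p = 0.0177). Lum stood at 45.9, 40.8 and 26.5 CPM at E10 and 62.9 CPM at E12. Lum had the smallest estimate of the 8 genes (log2 fold change 0.69, SE 0.48, adjusted p = 0.569) and was called under none of the 17 alternatives.

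**Figure D1:**
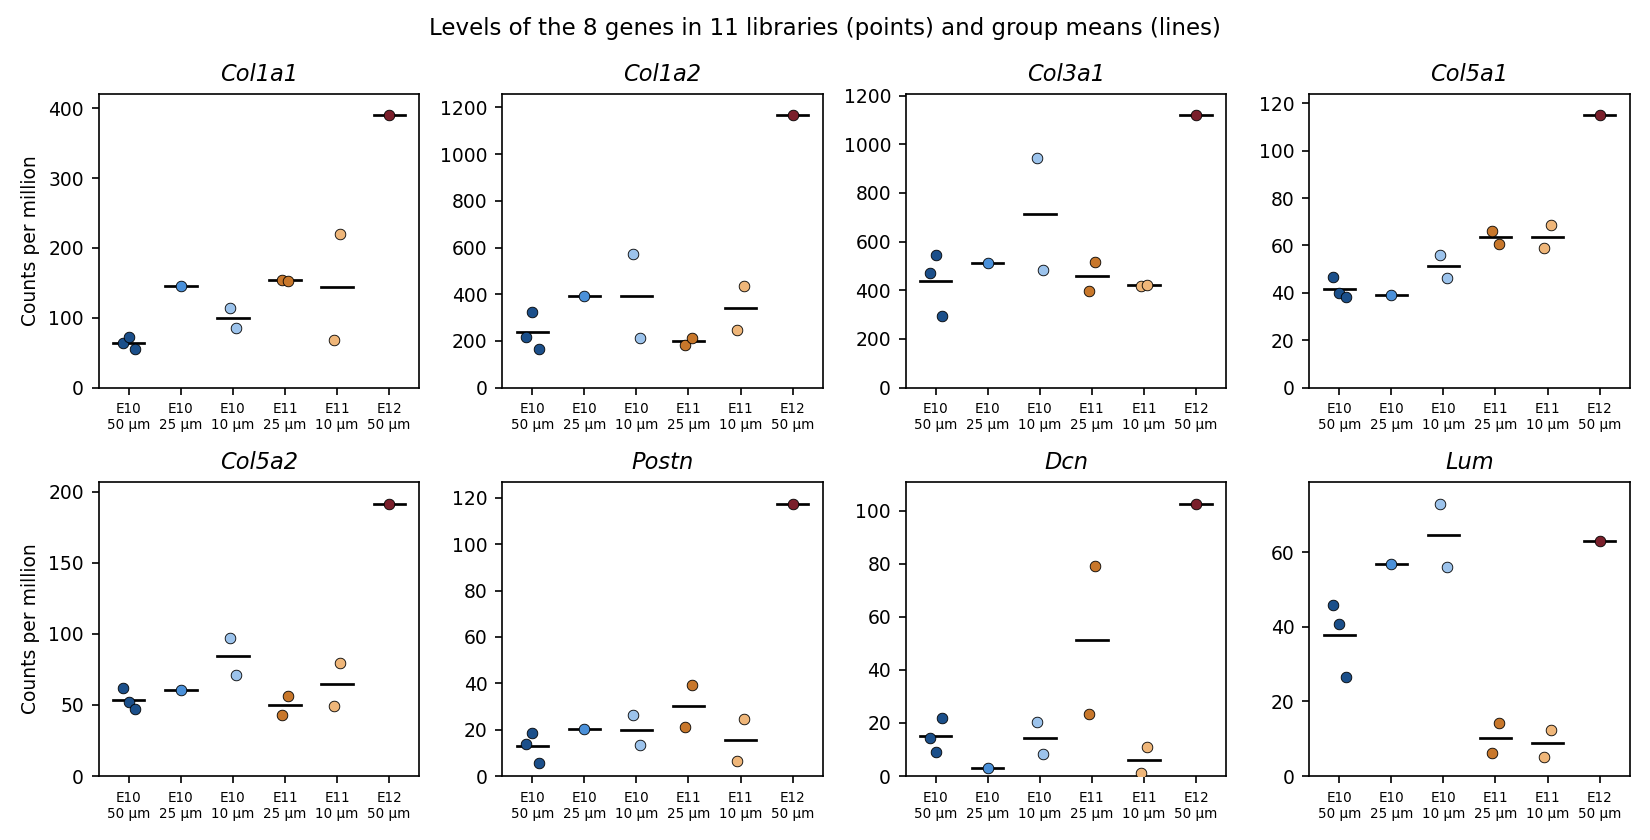
CPM of each gene (y axis, a separate scale from 0 in each panel) by group (x axis); points are libraries and lines are group means. The E12 section holds the highest value of 7 of the 8 genes, and Lum is at 5.06 to 14.2 CPM in the 4 E11 libraries and at 26.5 to 72.9 CPM in the other 7.

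Between E10 and E11, Lum was called lower. It stood at 72.9 and 56.0 CPM in the E10 10 µm libraries and 56.9 CPM in the E10 25 µm library. In the E11 libraries it stood at 5.06 and 12.4 CPM at 10 µm and 6.12 and 14.2 CPM at 25 µm. Every E11 library lay below every E10 library, the 50 µm ones included. Over both widths Lum was 5.95-fold lower (log2 fold change -2.57, SE 0.36, adjusted p = 0.00286), in a comparison in which 3.6% of genes were called (1.67% lower). It was the 1 gene of the 8 called there, and it was called under all 17 alternatives run. At 10 µm alone Lum was called as well (log2 fold change -2.88, SE 0.49, adjusted p = 0.00747), where 3.33% of genes were called (0.773% lower). At 25 µm, where E10 has 1 library, it did not pass (log2 fold change -2.26, SE 0.54, adjusted p = 0.106), and edgeR called none of the 8 genes, against 0.455% of all genes. There 3 of the 8 had an unadjusted p under 0.05, and DESeq2 called 2 after adjustment, Lum and Dcn. Markers of other tissues differed between the same libraries. Of 8 neuron genes, 4 were called lower over both widths, with sums of 203 to 713 CPM at E11 and 694 to 1360.4 CPM at E10. Summed liver genes stood at 59.1 to 3817 CPM at E11 and 8.25 to 74.2 CPM at E10, with Alb at 0 in the 3 E10 libraries. The part of these in the Lum difference was not tested. The Lum counts behind these values were 13 and 34 in the E11 10 µm libraries, 31 and 109 in the E11 25 µm libraries and 89 to 875 in the E10 libraries of these widths.

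The other 7 genes were not called between E10 and E11 over both widths. Col5a1 came nearest, with 39.0 to 55.9 CPM in the 3 E10 libraries and 58.7 to 68.6 CPM in the 4 E11 libraries, which did not overlap (log2 fold change 0.61, SE 0.22, adjusted p = 0.131). Col3a1 stood at 485 to 943 CPM at E10 and 398 to 517 CPM at E11, which overlapped (log2 fold change -0.36, SE 0.30, adjusted p = 0.487). Col1a1 (0.42, SE 0.35), Col1a2 (-0.49, SE 0.38), Col5a2 (-0.23, SE 0.26) and Postn (0.21, SE 0.56) overlapped between the stages too, with log2 fold changes within 2 standard errors of 0.

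Dcn was uneven between libraries. At E11 it stood at 23.5 and 79.2 CPM with 25 µm pixels and at 1.17 and 10.9 CPM with 10 µm pixels, from 119 and 608 counts and from 3 and 30 counts. At E10 it stood at 3.20 CPM with 25 µm pixels, from 5 counts, and at 20.5 and 8.49 CPM with 10 µm pixels. Both E11 25 µm libraries thus lay above the E10 one (log2 fold change 4.20, SE 1.43, adjusted p = 0.259), while the 10 µm libraries of the 2 stages overlapped (log2 fold change -1.26, SE 0.90, adjusted p = 0.470). The difference between these changes did not pass edgeR's test (log2 scale -5.45, SE 1.69, adjusted p = 0.433), which called 0.137% of genes and none of the 8. Dcn was the 1 gene of the 8 with an unadjusted p under 0.05 in that test. By DESeq2's Wald test the Dcn difference passed (adjusted p = 0.00791).

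Pixel width gave no edgeR call among the 8 genes within a stage. Between 10 and 50 µm at E10, 0.11% of genes were called, and 1 of the 8 (Col5a2) had an unadjusted p under 0.05 and none was called by DESeq2. Between 10 and 25 µm at E11, 2.07% were called. There 1 of the 8 had an unadjusted p under 0.05, Dcn (log2 fold change -3.15, SE 0.91, adjusted p = 0.171), which DESeq2 called (adjusted p = 0.00104).

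**Figure D2:**
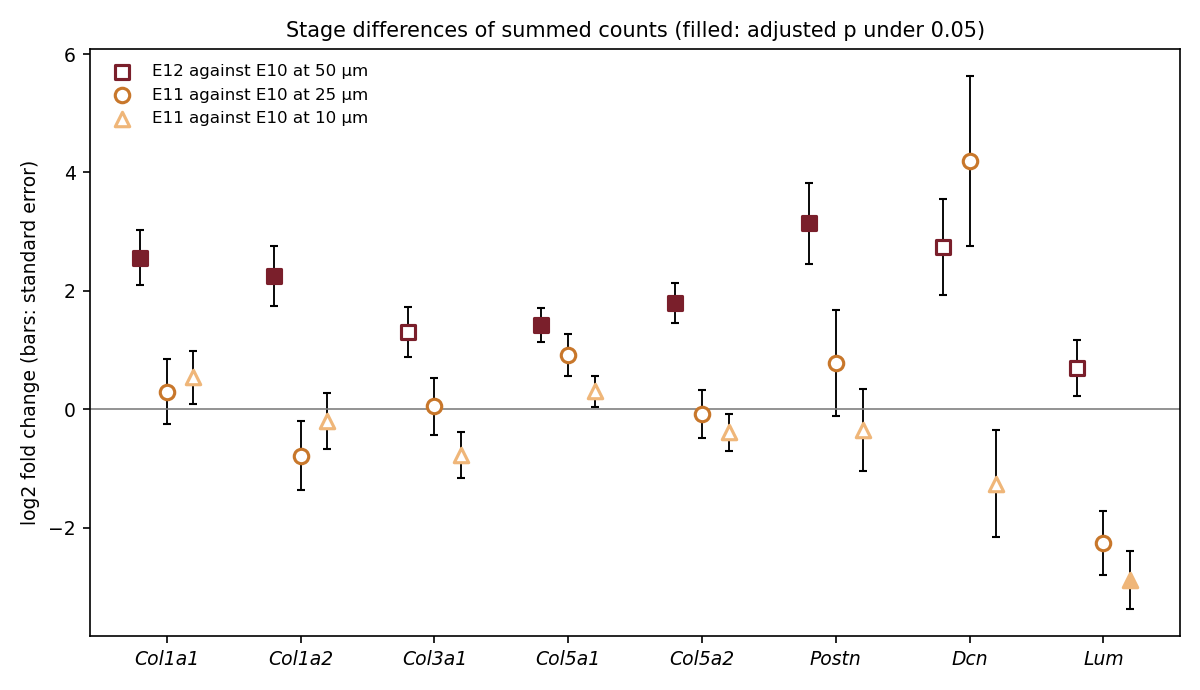
Log2 fold change (y axis) of each gene (x axis) between E12 and E10 at 50 µm and between E11 and E10 at 25 and 10 µm, with standard errors; filled symbols passed an adjusted p of 0.05. The 5 filled E12 symbols lie between 1.43 and 3.14, and the filled E11 symbol is Lum at -2.88.

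Type I collagen counts were set against the counts of the other 6 genes within each library, a ratio that no scaling changes. The log2 ratio was -1.22, -0.83 and -0.96 in the E10 50 µm sections (SD 0.20, n = 3) and -0.13 at E12. The E12 section lay 0.87 above the E10 mean, outside the spread of the E10 sections. Col3a1 held much of the other side, with 7275 of 11106 counts at E12 and 5349 of 7428 in E10 50 µm replicate 1. The ratio thus mainly sets type I against type III chains. Postn (3.14) and Dcn (2.74) had larger E12 log2 fold changes than Col1a1 (2.56) and Col1a2 (2.24). Col3a1, Col5a1, Col5a2 and Lum had smaller ones. Type I chains made up 47.7% of the counts of the 8 genes at E12 and 33.3% on average in the E10 50 µm sections. The ratio moved in different directions at E11. At 10 µm it was -1.01 ± 0.26 (SD, n = 2) at E10 and -0.34 ± 0.61 (SD, n = 2) at E11, a difference of 0.66 that is about as large as the E11 SD. At 25 µm it was -0.36 in the E10 library and -0.90 ± 0.24 (SD, n = 2) at E11, a difference of -0.54.

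**Figure D3:**
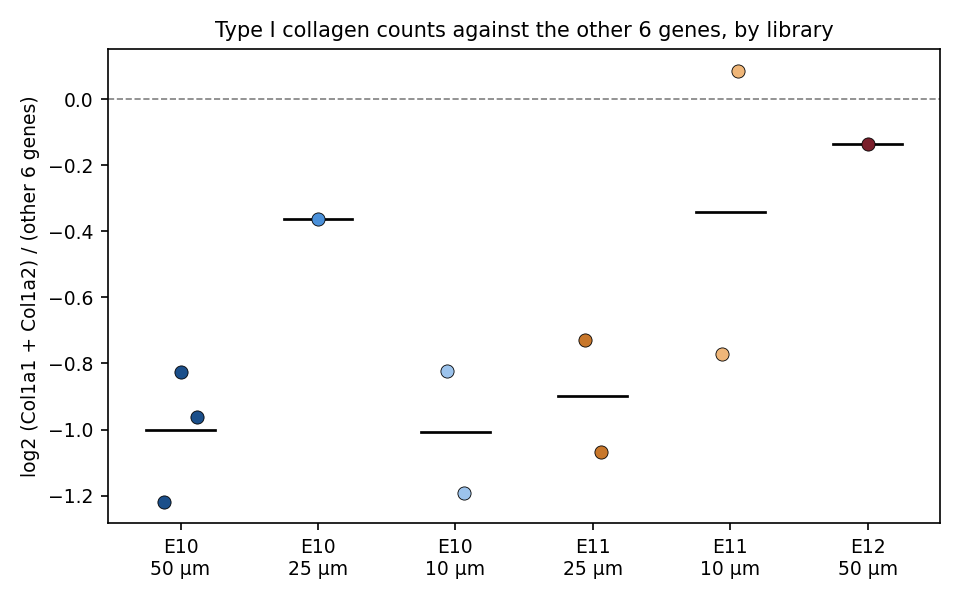
Log2 ratio of Col1a1 plus Col1a2 counts to the summed counts of the other 6 genes (y axis) by group (x axis); points are libraries, lines are group means, and 0 marks equal counts. The E12 point at -0.13 lies above the 3 E10 50 µm points, and 1 E11 10 µm library lies above 0, at 0.09.

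The chains of a collagen type did not keep a fixed ratio, as described here without a test. Col1a1 counts were 0.295, 0.221 and 0.334 of Col1a2 counts in the E10 50 µm sections and 0.334 at E12, although both chains were higher there. In the E11 25 µm libraries the ratio was 0.852 and 0.717, above the range of 0.198 to 0.502 in the other 9 libraries. For the type V chains, Col5a1 over Col5a2 was 0.576 to 0.819 in the 6 E10 libraries and 0.600 at E12. In the 4 E11 libraries it was 0.858 to 1.54, each above every E10 library. Dcn over Lum was 3.84 and 5.58 in the E11 25 µm libraries, 1.63 at E12 and under 1 in the other 8. Col3a1 over its neighbour Col5a2 ran from 5.29 to 10.5 over all 11 libraries.

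Other genes that build or trim collagen fibrils were read from lists, at E12 against E10 with 50 µm pixels. In that comparison 2.14% of all tested genes were called (1.93% higher). Of 10 fibril-associated and other interstitial collagens, 4 were called higher, with a list median log2 fold change of 2.55 against -0.04 over all genes. Col6a3, a chain of the beaded type VI filaments, stood at 76.2 CPM at E12 and 5.27 to 10.8 CPM at E10 (3.18, SE 0.46, adjusted p = 0.00367). Col8a1 (3.03) and Col16a1 (2.89) followed it. Of 6 other fibrillar collagens, 1 was called, Col11a2 of cartilage (3.39, SE 0.50, adjusted p = 0.00502). Of 19 folding and modifying enzymes, 1 was called, the lysyl hydroxylase Plod1 (1.56, SE 0.37, adjusted p = 0.0483), and the list median was 0.71.

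Of 12 genes of procollagen cleavage and cross-linking, 1 was called, the lysyl oxidase Lox, at 50.6 CPM at E12 and 4.98 to 13.9 CPM at E10 (2.42, SE 0.52, adjusted p = 0.0325). Of 6 other small leucine-rich proteoglycans that passed the filter on low counts, 2 were called, Aspn and Ogn. Aspn stood at 13.8 CPM at E12 and at 0 to 0.0881 CPM at E10, and Ogn at 58.8 against 2.16 to 6.55 CPM. Of 16 fibre glycoproteins, 4 were called, led by tenascin C (Tnc, 3.29), Fbln5 (2.55) and Mfap4 (2.01). Of 15 genes of collagen receptors and degradation edgeR called 0 and DESeq2 2, while 6 were under 0.05 before adjustment. Of 12 TGF-beta pathway genes, edgeR called 1 higher, the ligand Tgfb2 (2.18, SE 0.45, adjusted p = 0.0284). No gene of these 8 lists was called lower. With 2.14% of all tested genes called, lists with 1 call are not read as particular to fibril genes. Among markers of connective tissue cells, 1 of 6 osteoblast genes (Runx2, 5.02, in a list with 3 estimates above 0), 2 of 4 tendon genes (Tnmd, 4.13, and Scx, 2.54) and 3 of 10 mesenchyme factors (Osr2, 5.24, Osr1, 2.80, and Twist2, 1.93) were called higher. Markers of other cells were called too: 5 of 9 red cell genes higher and 1 lower, and higher calls for 3 of 7 skeletal muscle, 2 of 6 cartilage, 2 of 7 smooth muscle, 1 of 6 epithelium and 1 of 8 liver genes.

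At E11, over 10 and 25 µm, 4 of the 8 lists of fibril genes held 1 call each (Ogn, Lox, Fbln5 and Tgfb1). The lists held 6 to 19 measured genes each, and 3.6% of all tested genes were called in this comparison. The number of calls is therefore not read as particular to fibril genes. Ogn, a proteoglycan of the family of Lum, fell by 3.47 on the log2 scale (SE 0.62, adjusted p = 0.0129), from 6.04 to 13.8 CPM in the 3 E10 libraries to 0.197 to 1.17 CPM in the 4 E11 libraries. Lox fell by 2.10 on the log2 scale (SE 0.45, adjusted p = 0.0266) and Fbln5 by 2.06 on the log2 scale (SE 0.46, adjusted p = 0.0313). The ligand Tgfb1 rose (2.78, SE 0.67, adjusted p = 0.0468), and the mesenchyme factor Foxc2, from the marker lists, fell by 1.28 on the log2 scale (SE 0.25, adjusted p = 0.0174).

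Spatial extent was read as the share of tissue pixels with at least 1 count. Deeper pixels show more genes, so the share expected after thinning every pixel to 500 counts was used. The thinned share still rises with a gene's level, so it is not independent of the levels above. Pixels under 500 counts were left out, 301 in the E10 25 µm library, 146 and 236 in the E11 10 µm libraries, 7 in E10 10 µm replicate 2 and 0 in the others. Unthinned, Col3a1 was seen in 90.3, 91.2 and 80.1% of pixels of the E10 50 µm sections and in 87.5% at E12. Thinned, it was seen in 22.9, 24.7 and 14.5% at E10 and 40.4% at E12. The unthinned shares were high at both stages, and the E12 section lay above all 3 E10 sections after thinning. The median tissue pixel held 11332, 8239 and 10659 counts in the E10 sections and 3560 at E12.

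Col1a2 went from 11.8, 16.7 and 8.95% of pixels at E10 to 42.5% at E12, the widest extent of any of the 8 genes in any library. Col1a1 went from 3.85, 4.31 and 3.43% to 17.9%. Unthinned, Col1a1 was seen in 45.8, 43.7 and 42.8% and 64.0%. Type I collagen was thus seen in more pixels at E12 by either reading. How far this goes beyond its higher level was not tested. Postn was seen, thinned, in 0.899, 1.04 and 0.472% at E10 and 6.17% at E12. Dcn was seen in 0.898, 0.545 and 1.32% and 5.19%. Lum was seen in 2.71, 2.39 and 1.35% and 3.37%, and in 0.220 to 0.940% of pixels in the E11 libraries. For Lum the E12 section lay above the E10 50 µm sections but below an E10 10 µm library at 4.33%.

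A count in a pixel does not place the gene in a given cell, since a pixel can hold several cells and free RNA can add counts. In the 10% of pixels richest in neuron genes, the thinned share of Col3a1 had a median of 18.0% over the 11 libraries, against 21.3% of all tissue pixels, and was the lower of these in 9 of 11 libraries. For Lum the medians were 1.00% and 2.39%. Median depths in neuron-rich pixels ran from 878.5 to 10609 counts, against 843.5 to 11332 in all tissue pixels. The Col3a1 share in neuron-rich pixels is not read as expression by neurons. The part of other cells and of free RNA in it was not tested. In pixels rich in mesenchyme transcription factors the median for Col3a1 was 32.4%, above the share of all tissue pixels in each of 11 libraries.

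How far neighbouring pixels resembled each other was measured as Moran's I, near 0 for a gene scattered at random and higher for connected domains. Col3a1 had 0.523, 0.546 and 0.432 in the E10 50 µm sections, 0.282 and 0.467 in the E11 25 µm libraries and 0.337 at E12. Col1a1 had 0.277, 0.204 and 0.187 in the E10 50 µm sections, 0.313 at E12, and 0.258 and 0.386 in the E11 25 µm libraries. Col3a1 was thus more connected than Col1a1 in each of these sections. At E12 Col1a2 had 0.419, above both. Postn, seen in few pixels, had 0.112 and 0.351 in the E11 25 µm libraries and 0.216 at E12. Col5a1 ran from -0.0077 to 0.137 in all 11 libraries, and Lum at E11 from -0.0057 to 0.056. Depth, pixel width and level all differ between these libraries, and their part in Moran's I was not tested.

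**Figure D4:**
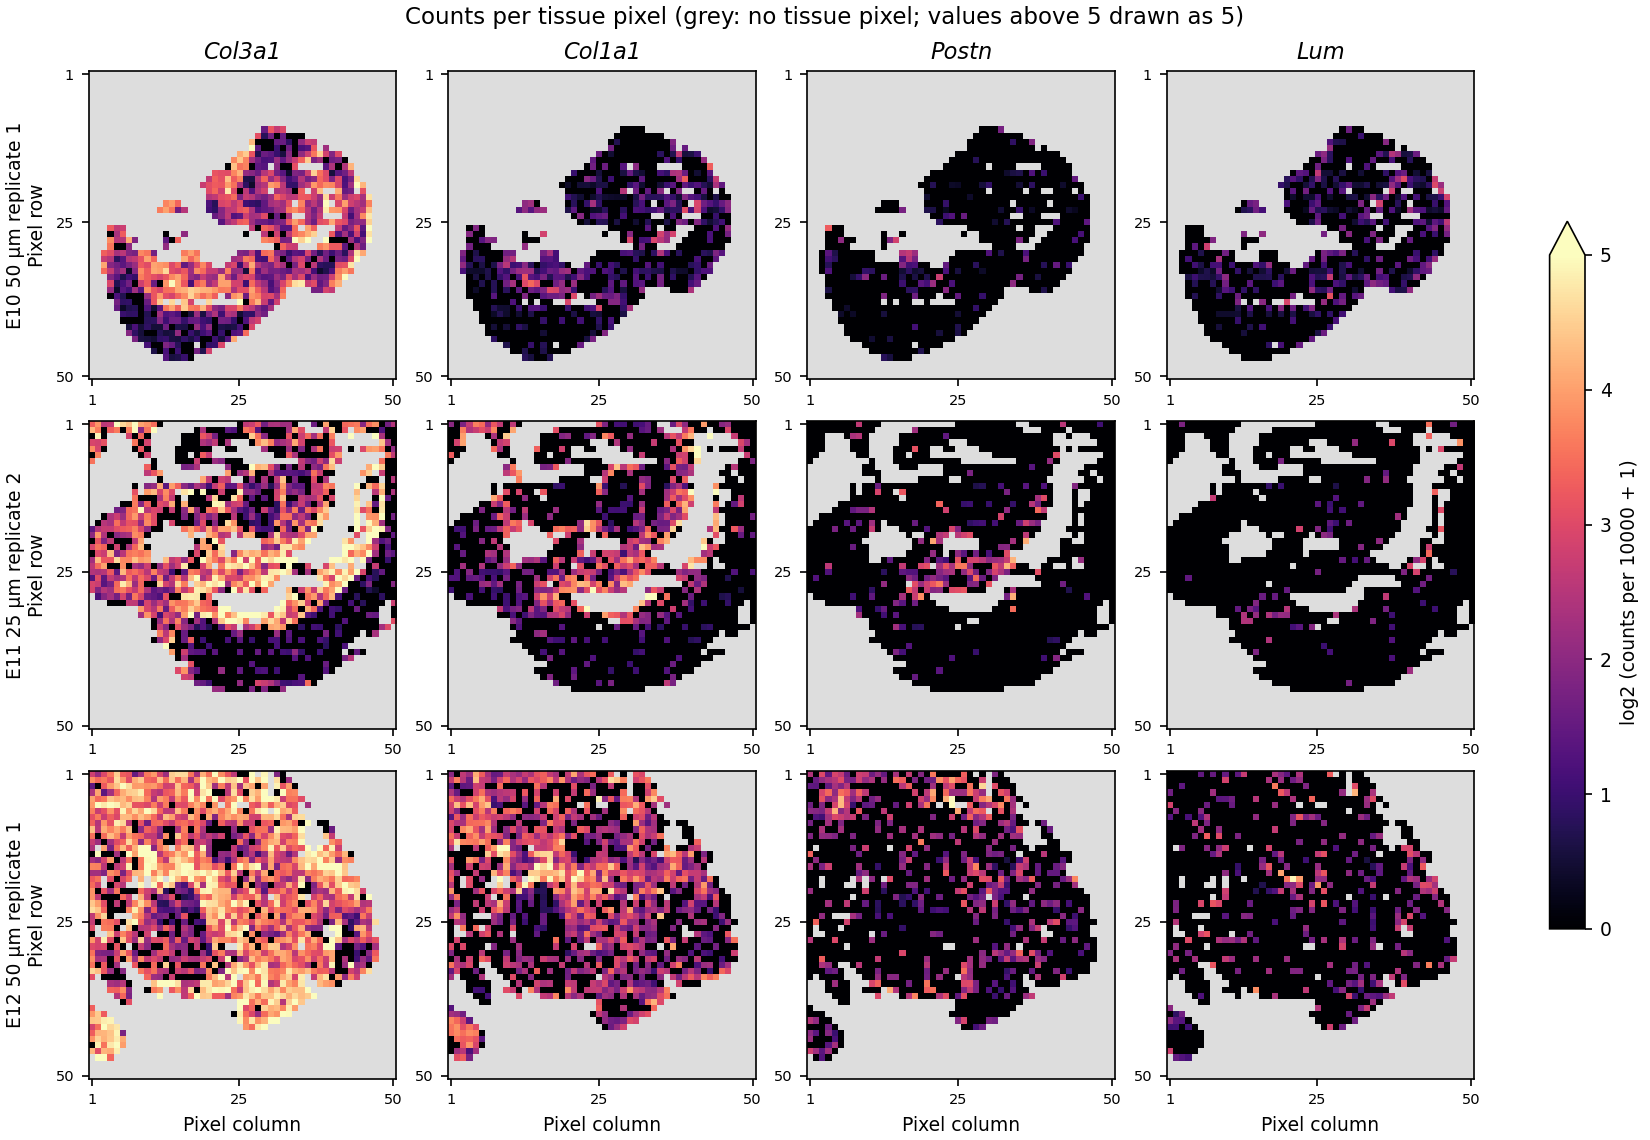
Tissue pixels of 3 sections (rows of panels; axes are pixel column and pixel row) coloured by log2(counts per 10000 + 1) of Col3a1, Col1a1, Postn and Lum; values above 5 are drawn as 5 and grey marks places with no tissue pixel. Col3a1 fills broad connected areas in all 3 sections, and in E11 25 µm replicate 2 Postn lies mostly in a central band while few pixels hold Lum, where Moran's I was 0.351 for Postn and 0.056 for Lum.

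To see in which tissues the genes were high, the 10% of tissue pixels with the highest share of their counts in a marker list were summed per library and compared with the library's other tissue pixels. A pixel needed at least 1 marker count, so for sparse lists fewer were chosen in 4 libraries, down to 31 pixels for skeletal muscle and 53 for heart muscle in E10 10 µm replicate 2. The 8 genes are in none of the lists. Depth differed too, read as the median over libraries of the chosen pixels' median count divided by that of the others. It was 0.649 for cartilage, 0.734 for endothelium, 0.810 for red cell, 0.828 for smooth muscle and 0.844 for mesenchyme lists. It was 0.830 for heart muscle, 0.853 for epithelium, 0.995 for neuron, 1.001 for neural progenitor and 1.027 for skeletal muscle. The part of depth in the results below was not tested. In pixels rich in smooth muscle and pericyte genes (Acta2, Tagln, Myh11 and others) all 8 were called higher, where 12.4% of genes were called (7.78% higher). The median log2 fold change was 0.85 for the 8 genes and -0.01 for all genes. Col1a1 ran from 113 to 904 CPM in these pixels with a median of 220.2, and from 50.4 to 367 CPM elsewhere with a median of 106. It was higher inside in 11 of 11 libraries (1.41, SE 0.32, adjusted p = 0.0154). Postn had the largest change (1.75, SE 0.37, adjusted p = 0.0111) and was higher in 10 of 11 libraries. Lum had the smallest (0.43, SE 0.14, adjusted p = 0.0448), and its call held under 1 of 5 alternatives (adjusted p up to 0.404). The Col1a2 call held under 3 of 5.

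The E11 25 µm libraries had the widest contrast of Col1a1 there, at 904 and 755 CPM in smooth muscle-rich pixels and 106 and 109 CPM elsewhere. Postn in the same libraries stood at 114 and 197 CPM against 15.3 and 27.7 CPM. At E12 Postn stood at 151 CPM inside and 114 CPM outside. With the 6 E10 libraries alone, 3 of the 8 genes were called (Col5a1, Col5a2 and Dcn), against 742 of all 10665 genes tested.

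In pixels rich in mesenchyme transcription factors, 7 genes were called higher (8.13% of genes called, 4.03% higher). Col1a2 had the largest change (0.97, SE 0.10, adjusted p = 1.79e-05). It was higher in 11 of 11 libraries, as were Col3a1 (0.86) and Postn (0.83). Dcn was the exception (-0.01, SE 0.39, adjusted p = 1.000). It stood at 32.9, 16.8 and 29.2 CPM inside and 13.0, 8.53 and 21.3 CPM outside in the E10 50 µm sections, but at 4.57 and 19.2 CPM inside and 25.3 and 85.0 CPM outside in the E11 25 µm libraries. It was thus higher inside in the first and lower in the second, and with the E10 libraries alone it was called higher (0.92, adjusted p = 0.00480). In endothelium-rich pixels, too, the 7 genes other than Dcn were called higher (12.7% of genes called, 7.44% higher), among them Col1a1 (1.01, SE 0.20, adjusted p = 0.00772) and Col5a2, which was higher in 11 of 11 libraries (0.67). With the 6 E10 libraries alone, Col1a2 (adjusted p = 0.122) and Col3a1 (0.129) lost their calls in endothelium-rich pixels and Dcn was called higher (0.0294).

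Cartilage- and sclerotome-rich pixels gave 3 calls, Col1a2 (0.51), Col5a1 (0.59) and Lum (0.65), all higher (4.03% of genes called, 2.44% higher). Red cell-rich pixels gave 1, Lum (0.86, SE 0.23, adjusted p = 0.0242), higher in 7 of 11 libraries (11.9% called, 5.91% higher). In epithelium-rich pixels edgeR called none of the 8, with 1 at an unadjusted p under 0.05 (3.62% of genes called).

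Neuron-rich pixels gave 5 calls, all lower, in a comparison in which 29.8% of genes were called (15.1% lower). Dcn had the largest change (-1.05, SE 0.22, adjusted p = 6.51e-04), followed by Col1a2 (-0.53), Lum (-0.50), Col5a1 (-0.46) and Col5a2 (-0.35). Neural progenitor-rich pixels gave 3, also lower, Lum (-0.83, SE 0.15, adjusted p = 0.00117), Col5a2 (-0.46) and Col5a1 (-0.39), with 8.71% of genes called (5.01% lower). Dcn there had an estimate of 0.37, the 1 value above 0 among the 8. Skeletal muscle-rich pixels gave 1, Col1a2, lower (-0.38, SE 0.09, adjusted p = 0.0375), with 1.1% of genes called (0.488% lower). Col1a2, Col5a1, Col5a2 and Lum were therefore called higher in smooth muscle-, mesenchyme- and endothelium-rich pixels and lower in neuron-rich ones. The Lum call in smooth muscle-rich pixels held under 1 of 5 alternatives. A pixel can be in several of these sets, and their overlap was not measured.

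In heart muscle-rich pixels edgeR called none of the 8 genes (7.91% of genes called), with 3 at an unadjusted p under 0.05. Postn stood at 60.8, 50.8 and 51.9 CPM inside and 10.5, 15.8 and 3.55 CPM outside in the E10 50 µm sections. In the E11 25 µm libraries it stood at 18.6 and 26.4 CPM inside and 21.5 and 40.2 CPM outside. The E10 50 µm sections were higher inside and the E11 25 µm libraries lower, a difference that was not tested, and over all 11 libraries Postn did not pass (0.99, SE 0.42, adjusted p = 0.199). In E10 10 µm replicate 2 and E11 10 µm replicate 1 the chosen pixels held heart genes at only 503 and 475 CPM, against 4218 CPM or more in the other 9.

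**Figure D5:**
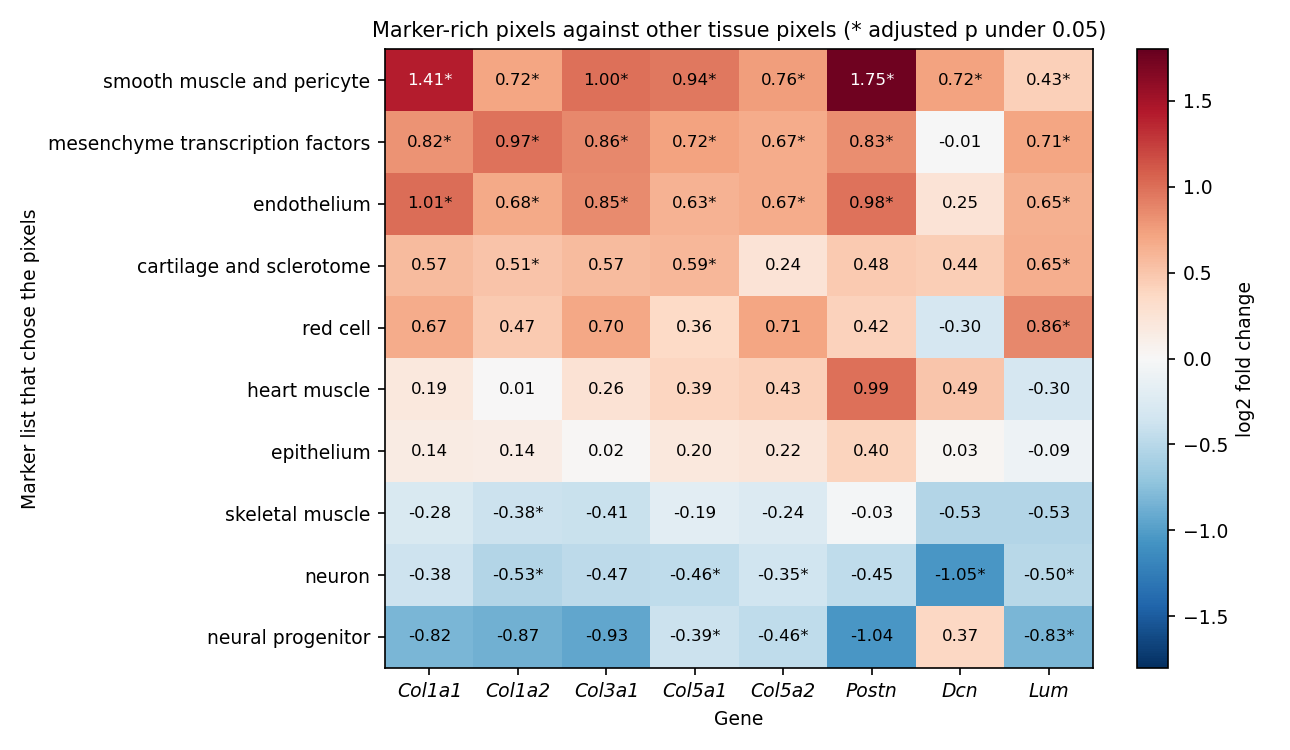
Log2 fold change (colour and number) of each gene (columns) in the tissue pixels richest in each marker list (rows) against the other tissue pixels of the same libraries, n = 11; stars mark an adjusted p under 0.05. The smooth muscle row holds 8 stars with values of 0.43 to 1.75, and the neuron row holds 5 with values of -1.05 to -0.35.

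The Dcn counts of the E11 25 µm libraries were looked at further, a choice made after the values were seen and with no test. Foxa2 and Shh are transcripts of floor plate, notochord and gut lining. In tissue pixels with a count of either, Dcn stood at 139 CPM against 13.1 CPM elsewhere in replicate 1, and at 371 against 31.9 CPM in replicate 2. These 115 and 165 pixels, of 1704 and 1504, held 48.7% and 65.3% of the Dcn counts of their library. Col1a1 went the other way, at 35.9 against 165 CPM and 63.6 against 168 CPM. The chosen pixels were also deeper, with medians of 3272 and 5820 counts against 2456 and 4050. In the E10 50 µm sections Dcn in such pixels stood at 21.4, 15.1 and 23.9 CPM against 13.4, 8.76 and 20.6 CPM, and at E12 at 264 against 96.2 CPM. In E10 10 µm replicate 1 Dcn was lower in such pixels, at 9.81 against 21.6 CPM. In the other 4 libraries, with 3 to 20 such pixels, Dcn had 0 counts there.

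Across tissue pixels within a library, the most abundant chains followed each other. Pearson's r of log2(counts per 10000 + 1) between Col1a2 and Col3a1 averaged 0.34 over 11 libraries (0.14 to 0.57), between Col1a1 and Col3a1 0.27 (0.10 to 0.45) and between Col1a1 and Col1a2 0.23 (0.10 to 0.38). Col5a1 and Col5a2 averaged 0.055 with each other, but 0.14 and 0.16 with Col3a1. The neighbours Dcn and Lum averaged 0.033, and Postn and Lum 0.014. Pixels share library, depth and neighbours, and sparse genes give a low r whatever their pattern, so these are descriptions.

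Of 6042 genes compared, Col3a1 had the pixel pattern most like that of Col1a1, Col1a2, Col5a1, Col5a2 and Lum. Outside the 8 genes, Fbn2, a fibrillin of embryonic microfibrils, had the pixel pattern most like that of Col1a1 (mean r 0.22), Col1a2 (0.29) and Col3a1 (0.34). The next outside the 8 was Sparc, a collagen-binding glycoprotein, for Col1a1 (0.19) and the actin-binding Cnn2 for Col1a2 (0.24) and Col3a1 (0.30). Likewise among other genes, Col5a1 was closest to Fstl1 (0.12) and the basement membrane chain Col4a1 (0.11), Col5a2 to Ahnak (0.13) and Fbn2 (0.12), and Lum to Col4a1 (0.098) and Fbn2 (0.096). Postn was closest to Tagln (0.15) and Acta2 (0.13), both over 8 libraries and both in the smooth muscle and pericyte list. Which tissue this reflects was not tested. Dcn was closest to Sulf1 (0.12, over 11 libraries) and Vtn (0.10, over 9), with values of up to 0.45 and 0.44 in E11 25 µm replicate 2. Means over fewer libraries are not strictly comparable with means over 11, so the order of such genes is uncertain.

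In the 4 E10 sections with antibody tags, each gene was compared with 22 antibodies. CD63, a tetraspanin of endosomes and the cell surface, had an r above 0 with each of the 8 genes in 4 of 4 sections, and the highest mean of the antibodies for 7 of them. The mean was 0.25 for Col3a1 (0.18 to 0.40), 0.20 for Col1a2, 0.16 for Col1a1 and 0.10 for Lum. For Col5a2 the panendothelial cell antigen was highest (0.083), and it came second for Col3a1 (0.16) and Col1a2 (0.12). The antibody labelled CD304-NPR1 had the lowest mean for Col1a1 (-0.083), Col1a2 (-0.10), Col3a1 (-0.15), Col5a2 (-0.069) and Postn (-0.054), below 0 in 4 of 4 sections for each.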

How the data were processed

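The authors deposited 15 tables of raw counts per pixel, 11 of transcripts and 4 of antibody tags, and every value read was a whole number. Per the labels' protocols, Nextera XT libraries of frozen sections were sequenced as paired reads. The submitters' processing notes name CASAVA 1.8.2 and GRCh38, a human build, so the build behind the mouse counts is not known here and GENCODE M21 gave only positions and exon lengths. Collapsing of duplicate molecules is not given in the sources used here.

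A tissue pixel had at least 0.1 of the 95th percentile of its library's pixel totals. Sums over tissue pixels were tested two-sided with edgeR 4.0.16 in R 4.3.3 (TMM factors, default filter by group, robust fit of 6 group means to 11 libraries). For marker-rich pixels the same test took the library as a block. DESeq2 1.42.0, other scalings, filters and pixel limits, and leaving out each library were alternatives. In simulated counts the E12 comparison recovered 8% of 2-fold, 58% of 4-fold and 94% of 8-fold changes. For the same folds, E11 against E10 recovered 12, 92 and 98% over both widths, but 4, 28 and 82% at 25 µm. The difference of the E11 changes recovered 0, 4 and 48%. A missing call in these comparisons does not show an equal level. Replicates differed by more than sampling noise, with chi-square at 24.6 to 70.0 times its degrees of freedom.

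The members and all lists were chosen with earlier results of these data known. Named were the 8 members, up to 3 called genes per list and direction by log2 fold change, and the 2 closest genes by mean r among those with a count in at least 5% of tissue pixels in at least 8 libraries.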

Additional observations from a re-analysis of the deposited data

Results flagged for a closer look

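Of 80 combinations of the 8 genes and 10 marker lists, 15 moved in opposite directions in the 10 µm libraries of E10 and E11: both E10 libraries differed one way between marker-rich and other pixels, and both E11 libraries the other way. These differences were not tested, with 2 libraries in each group. No such share was taken over all genes, so the 15 is not read as particular to the 8 genes. The values are the difference in CPM between marker-rich and other tissue pixels, E11 minus E10. In neuron-rich pixels it was 123 for Col1a1, 300.2 for Col1a2, 567 for Col3a1, 74.8 for Col5a1 and 17.1 for Dcn. Col3a1 was lower inside at E10 (a mean difference of -326 CPM) and higher inside at E11 (241 CPM). In neural progenitor-rich pixels it was 115 for Col1a1, 391 for Col3a1, 56.7 for Col5a2 and 35.3 for Postn. Summed neuron genes stood at 203 and 452 CPM in the whole E11 10 µm libraries and at 694 and 787 CPM in the E10 ones, and the part of this in the differences was not tested.

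In heart muscle-rich pixels the value was 15.5 for Postn. It rests in part on E10 10 µm replicate 2 and E11 10 µm replicate 1, whose chosen pixels held few heart genes. In red cell-rich pixels it was -40.1 for Lum. For Dcn it was -10.1 in cartilage- and sclerotome-rich pixels and -16.6 in mesenchyme-rich pixels. In smooth muscle-rich pixels it was -38.3 for Col5a2 and -36.5 for Lum.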

How the results depend on the processing

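Counts of called genes are out of 8. Leaving out 1 library at a time gave 0 to 6 at E12, 1 to 1 at E11 over both widths and at 10 µm, 0 to 1 at E11 with 25 µm pixels, 0 to 0 between 10 and 50 µm at E10, 0 to 1 between 10 and 25 µm at E11 and 0 to 0 for the difference of the E11 changes. Over all genes the E12 calls then ran from 98 to 969. Brackets below give the calls over all genes tested. At E11 with 25 µm pixels DESeq2 called 2 (388 of 18233), no low-count filter gave 1 (671 of 30104) and the replicate block gave 1 (40 of 18233), against 0 (83 of 18233). Between 10 and 25 µm at E11 DESeq2 called 1 (561 of 18233), no filter gave 1 (870 of 30104) and the replicate block gave 1, against 0. DESeq2 called 1 for the difference of the E11 changes (118 of 18233). Whether the numbers 1 and 2 of the E11 libraries pair them is not known. Deviations from the group means of the libraries numbered 1 correlated at 0.0544 over 18233 genes. With 2 libraries in each group this can neither show nor exclude a shared embryo. With the replicate block 297 of all genes were called between 10 and 25 µm at E11, against 378. With no filter, the count was 8 in neuron-rich pixels (5613 of 30104) and 5 in red cell-rich pixels (2013 of 30104). It was 5 in cartilage-rich (930 of 30104) and 6 in skeletal muscle-rich pixels (1301 of 30104). With the top 20% of pixels it was 5 in neural progenitor-rich (1454 of 12086) and 3 in heart-rich pixels (855 of 11622). There it was 0 in red cell-rich (1364 of 11754) and 2 in skeletal muscle-rich pixels (228 of 12118). With DESeq2's size factors it was 1 in neural progenitor-rich (959 of 10680), 1 in heart-rich (853 of 11003) and 0 in skeletal muscle-rich pixels (121 of 10861). With the 6 E10 libraries it was 6 in neural progenitor-rich (469 of 10791), 3 in heart-rich (646 of 11140) and 6 in red cell-rich pixels (1147 of 10460). With these libraries it was 1 in epithelium-rich (331 of 10838) and 7 in cartilage-rich pixels (396 of 10371). It was 2 in skeletal muscle-rich (115 of 11021) and 3 in smooth muscle-rich pixels (742 of 10665). With tissue pixels at 0.2 of the percentile it was 0 in skeletal muscle-rich pixels (113 of 10782). Dcn in mesenchyme-rich pixels reversed from -0.01 to 0.92 with the E10 libraries. The cause of these changes was not tested. Of 400 region fold changes, 333 kept direction and call.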
